A study of Mus musculus with 16 samples.

Results

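The 10 genes described here encode parts of the contractile actin cytoskeleton and secreted CCN proteins: Acta1, Acta2, Tagln, Tpm1, Tpm2, Cnn1, Cnn2, Myl9, Cyr61 and Ctgf. They were taken by name from 24320 gene names shared by 3 deposited RNA-seq tables of mouse embryonic stem (ES) cells, and they had been selected on their rise in Pml knockout cells, so that comparison describes them and does not test them. All 10 were among the 10868 genes that reached a value of 1 in at least 2 libraries of every table. Several of them are named for smooth muscle, and the labels call the cells embryonic stem cells. Myh11, the smooth-muscle myosin heavy chain, lay between 0.0124 and 0.161 in all 16 libraries, whereas other listed smooth-muscle markers such as Cald1 were expressed, as described with each comparison. The pluripotency factor Pou5f1 lay between 1522 and 1601 FPKM in the 4 Pml libraries, 832 and 840 RPKM in the untreated and 478 and 513 RPKM in the arsenite libraries, and 805 to 1019 in the Trim33 table.

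Acta1 and Acta2 are the skeletal and smooth-muscle alpha-actins, and Tpm1 and Tpm2 are tropomyosins that lie along actin filaments. Tagln (transgelin), Cnn1 and Cnn2 (calponins) bind actin, and Myl9 is a regulatory light chain of non-muscle and smooth-muscle myosin. Cyr61 (Ccn1) and Ctgf (Ccn2) are secreted matricellular proteins. When actin polymerises, MRTF cofactors are freed from actin monomers and activate transcription with SRF, which binds the CArG box. YAP and TAZ, which the Hippo kinases hold in the cytoplasm, act through TEAD factors, and Cyr61 and Ctgf are their textbook targets.

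All libraries were made from E14Tg2a.IV cells, a mouse ES cell line grown without feeders in serum with leukemia inhibitory factor, and the labels give the strain as C57BL/6. The Pml table held 2 wild-type and 2 Pml knockout libraries, all untreated. Pml encodes the scaffold protein of PML nuclear bodies. The arsenite table held 2 untreated wild-type libraries and 2 wild-type libraries treated with sodium arsenite, an oxidative stressor, at 200 µM for 2 h. The Trim33 table held 2 libraries for each combination of wild type or Trim33 knockout with activin A (50 ng/ml), a ligand of the TGF-beta family, or SB431542 (10 µM), an inhibitor of its type I receptors, each for 2 h. Trim33 encodes a chromatin reader and ubiquitin ligase that binds SMAD proteins. The labels do not say how the knockouts were made or how many clones they represent. Nor do they tie the libraries of 1 group to separate cultures, and each p-value measures only the spread between these libraries.

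The labels were checked first. Pml RNA was 49.8 and 45.1 FPKM in the wild-type and 32.0 and 33.5 FPKM in the knockout libraries, a drop of 0.52 ± 0.06 on the log2(value + 1) scale (SE, limma, adjusted p = 0.000489), and the deleted part of the gene is not given. Under activin A, Trim33 was 20.1 and 23.5 in the libraries labelled wild type and 2.53 and 2.79 in the ones labelled knockout. With SB431542 the order was the opposite, 2.94 and 2.44 in the libraries labelled wild type against 18.3 and 24.6 in those labelled knockout. Every direction given for that table therefore refers to labels that its SB431542 libraries go against. The Y-linked gene Eif2s3y also differed, at 16.2 to 20.6 FPKM in Pml wild type and 0.753 to 1.10 FPKM in Pml knockout. Pml genotype and another difference between the lines cannot be told apart.

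Sequence just upstream of the transcription start was available for 8 of the 10 genes in the RefSeq promoter table (GRCm38.p6). The 250 bases before each start were searched on both strands for the CArG box, a CC pair and a GG pair around 6 A or T bases, and for CATTCC, the core of the TEAD site, which reads GGAATG on the other strand. A CArG box occurred in 3 of the 8, against 1.40% of all 27025 promoters, and CATTCC occurred in 4 of the 8, against 12.6%. Acta1 held both, as did 0.181% of all promoters. The windows with a match are printed 5′ to 3′ on the gene's strand because they carry the letters that bind SRF or TEAD in the textbook description, with the matches in capitals. The CArG boxes of Acta1, Cnn2 and Myl9 began 73, 56 and 161 bases upstream of the start. The CATTCC or GGAATG matches began 46 bases upstream in Acta1, 146 in Acta2, 56 in Tpm1 and 103 in Cyr61. The windows of Acta2 and Tpm1 overlap exons of GENCODE transcripts, so only 30 bases are shown there. None of these data measured binding.
Acta1, chr8:123894776-123894888, minus strand: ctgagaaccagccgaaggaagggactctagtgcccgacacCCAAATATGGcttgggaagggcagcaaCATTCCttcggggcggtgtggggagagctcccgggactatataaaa
Cnn2, chr10:79988534-79988563, plus strand: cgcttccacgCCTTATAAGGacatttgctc
Myl9, chr2:156775263-156775352, plus strand: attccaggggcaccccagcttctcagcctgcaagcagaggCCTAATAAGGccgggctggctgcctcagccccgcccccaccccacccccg
Acta2, chr19:34255502-34255531, minus strand: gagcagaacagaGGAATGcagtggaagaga
Tpm1, chr9:67049252-67049281, minus strand: tggctgtcctaaGGAATGcggtcgcccccc
Cyr61, chr3:145650043-145650128, minus strand: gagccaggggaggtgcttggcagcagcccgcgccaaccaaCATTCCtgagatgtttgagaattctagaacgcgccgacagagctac

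The Pml comparison gave the widest range of levels for the 10 genes, which were all higher in both knockout libraries than in both wild-type libraries. As the genes were chosen by this contrast, their values are given without a test. Acta1 was 0.810 and 0.832 FPKM in wild type and 20.3 and 20.8 FPKM in the knockout. Acta2 was 1.03 and 1.24 FPKM in wild type and 31.8 and 35.6 FPKM in the knockout. Both alpha-actins thus went from about the level of the filter to above 20 FPKM, with ratios of the means of 25.1 and 29.8. Acta1 passed the filter on low values only through the knockout libraries.

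Among the actin-binding genes, Tagln moved most, from 10.5 and 8.57 FPKM in wild type to 263 and 278 FPKM in the knockout. Tpm1 started from 71.1 and 72.6 FPKM and reached 362 and 384 FPKM. The ratio of means was 28.4 for Tagln and 5.19 for Tpm1, and within each group the pair of libraries differed far less than the groups did. Tpm2, Cnn1 and Cnn2 had ratios of 2.96, 7.36 and 3.51, with wild-type means of 12.1, 1.14 and 51.8 FPKM. Myl9 was 6.13 and 4.55 FPKM in wild type and 14.1 FPKM in both knockout libraries, a ratio of 2.64.

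The 2 CCN genes did not move alike. Cyr61 was 6.76 and 6.79 FPKM in wild type and 67.6 and 72.2 FPKM in the knockout, a ratio of 10.3. Ctgf was 19.9 and 20.7 FPKM in wild type and 35.0 and 38.1 FPKM in the knockout, a ratio of 1.80. Ctgf was thus above Cyr61 in every wild-type library and below it in every knockout library.

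In order of level per length, wild-type cells had Tpm1 highest at 71.8 FPKM, then Cnn2, Ctgf, Tpm2, Tagln, Cyr61 and Myl9, with Cnn1, Acta2 and Acta1 lowest. The ranges of Cnn1 and Acta2 overlapped there. In the knockout the order was Tpm1 at 373 ± 15.7 FPKM (SD, n = 2), Tagln at 271 ± 10.4, Cnn2 at 182 ± 8.35 and Cyr61 at 69.9 ± 3.25, followed by Ctgf, Tpm2 and Acta2, whose library values overlapped between 31.8 and 38.1 FPKM, and then Acta1, Myl9 and Cnn1. Tagln moved from the fifth to the second place in this order.

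**Figure D1:**
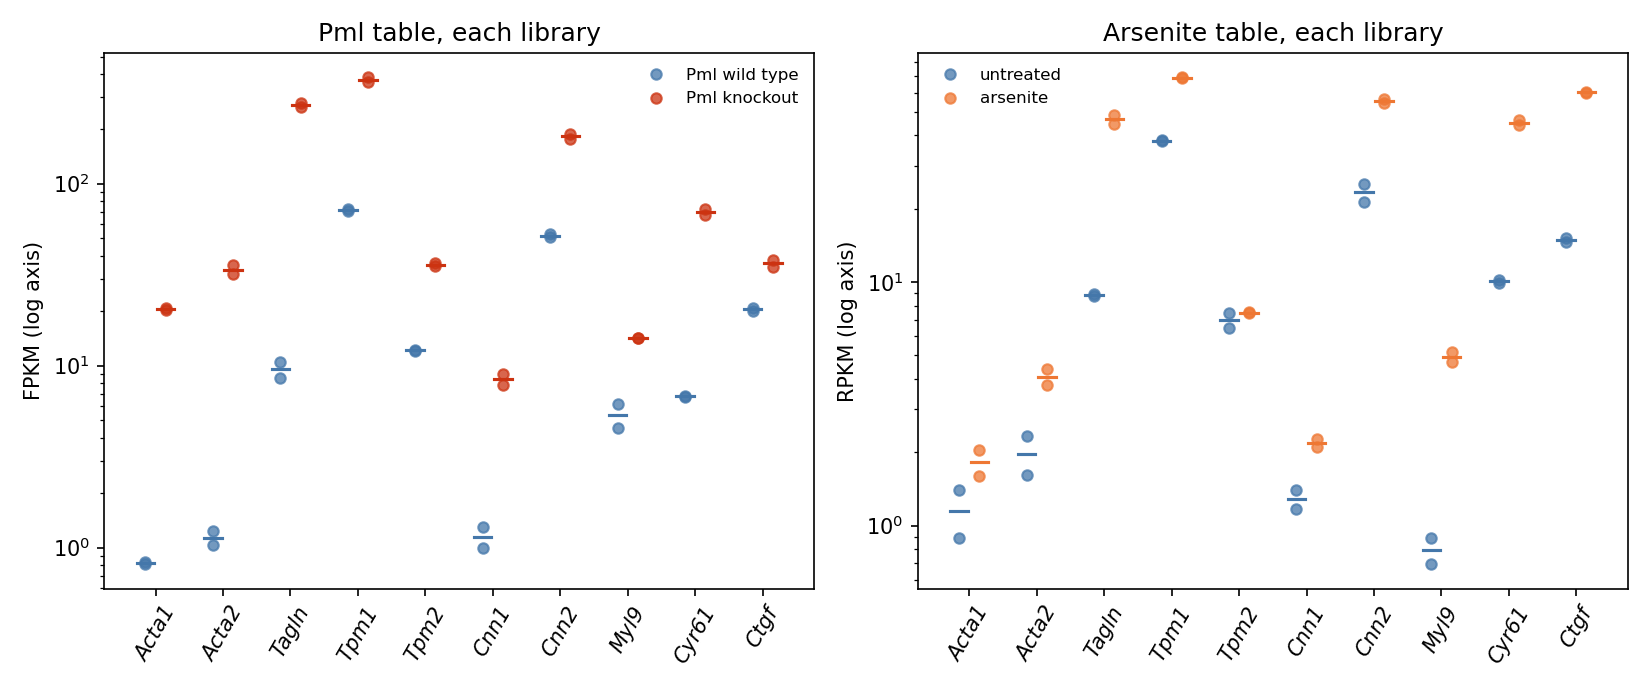
Level of the 10 genes in each library of the Pml table (left, FPKM) and the arsenite table (right, RPKM), on log axes, with each dot a library and each short line the mean of 2 libraries. In the left panel both knockout values lie above both wild-type values for every gene, and in the right panel Tpm2 is the gene whose groups nearly touch, at 6.49 and 7.44 against 7.51 and 7.46.

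Other genes of the same pathways were tested in the Pml comparison, where 35.5% of 11648 genes were called, 16.6% higher and 18.9% lower (limma, adjusted p under 0.05). Of the 16 SRF and MRTF targets listed, 12 rose and 2 fell, and 2 of the 12 had passed the filter only through the knockout. These 2 were Fhl2, a LIM-domain cofactor with means of 0.575 FPKM in wild type and 9.47 FPKM in the knockout, and the focal-adhesion gene Tgfb1i1, with means of 0.741 and 4.67 FPKM. They had to differ, so the other 14 carry the test, and 10 of them rose and 2 fell. Zyx, which encodes another focal-adhesion protein, rose by 2.25 ± 0.07 on the log2 scale (SE, n = 2 per group, limma, adjusted p = 2.26e-07). The tropomyosin gene Tpm4 rose by 1.67 ± 0.05, from a mean of 37.6 to 122 FPKM. Non-muscle myosin Myh9 went the other way and fell by 1.13 ± 0.08 from a wild-type mean of 29.7 FPKM. Actb, another gene of this list, fell by 0.17 ± 0.05.

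Among 17 tested YAP and TEAD targets, 16 rose and 1 fell, and 4 of the 16 had passed the filter only through the knockout, which leaves 12 higher and 1 lower of 13. Among these 13, F3, tissue factor, went from a mean of 3.96 to 23.4 FPKM (adjusted p = 5.11e-07). Axl, a receptor tyrosine kinase, Tgfb2, a TGF-beta ligand, and Crim1 were among the 4 others, with means of 0.634, 0.234 and 0.796 FPKM in wild type and 7.60, 4.65 and 5.33 FPKM in the knockout. Gadd45a, a growth-arrest gene, was the one that fell, by 0.42 ± 0.05. Without the genes that passed through the knockout only, the median change was 0.60 for the SRF and MRTF list and 0.78 for the YAP and TEAD list, and it was -0.02 for all genes tested. A rise of at least 1 log2 unit was called for 5 of those 13 YAP and TEAD targets and 2 of those 14 SRF and MRTF targets. The share of all genes was 2.99%, and it includes genes of that kind.

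Of 15 Hippo and TEAD components, 5 rose and 3 fell, with called changes including Tead3 at 1.10 ± 0.13, Amot, a scaffold that binds YAP, at 1.01 ± 0.11, Tead1 at 0.44 ± 0.08 and Tead4 at -0.42 ± 0.11. Yap1 and Wwtr1, which encodes TAZ, were not called, at 0.12 ± 0.06 and 0.05 ± 0.08 (adjusted p = 0.135 and 0.675). Of 9 tested family relatives of the 10 genes, 8 rose and none fell. The CCN gene Wisp1 and the cardiac actin gene Actc1 passed the filter only through the knockout, from means of 0.113 and 0.0801 FPKM, and rose by 1.66 ± 0.13 and 1.12 ± 0.13. The abundant light chains Myl12a and Myl6 rose by 0.75 ± 0.05 and 0.61 ± 0.05.

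**Figure D2:**
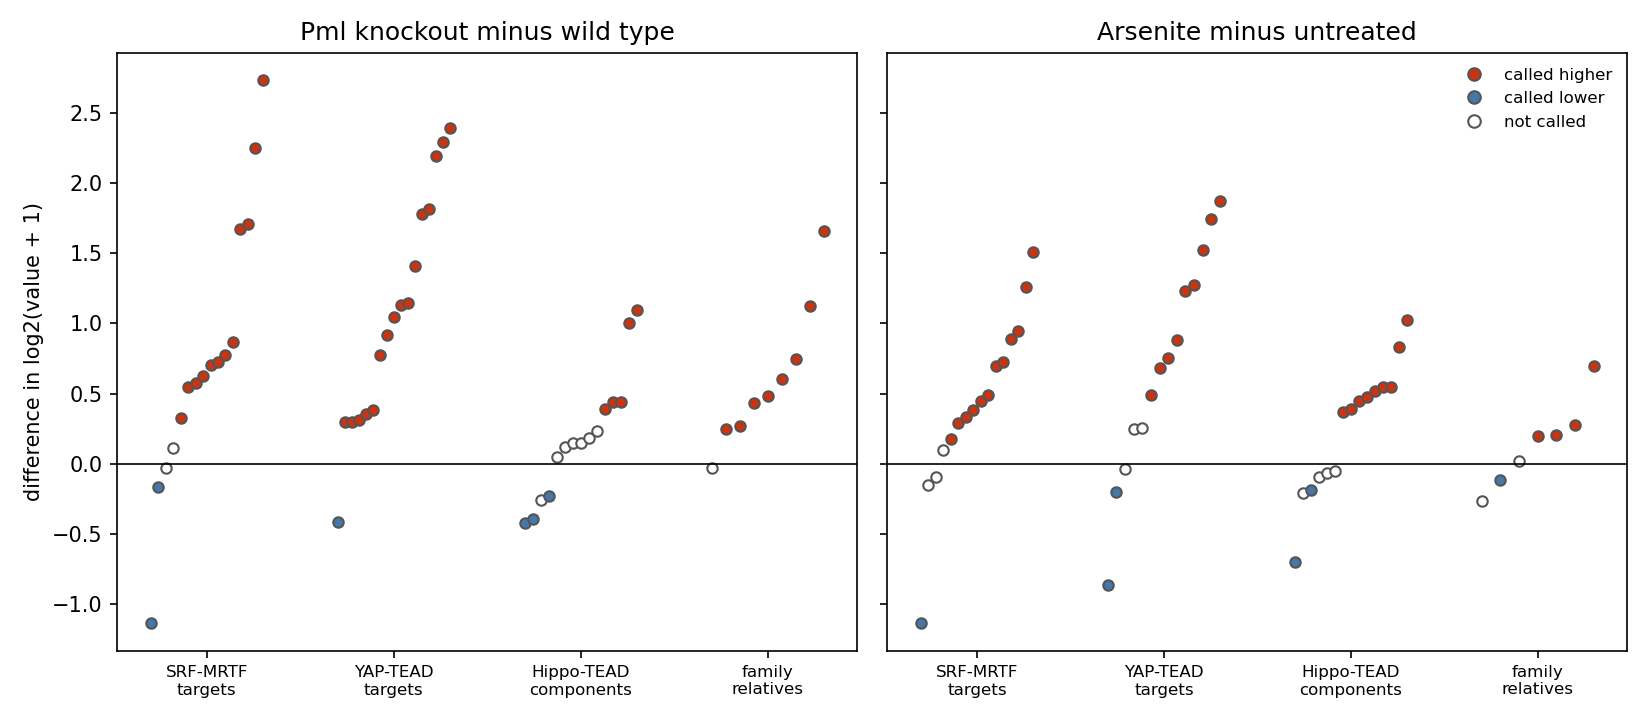
Difference in log2(value + 1) of each tested gene of the 4 pathway lists, for Pml knockout minus wild type (left) and arsenite minus untreated (right), with filled dots called (limma, adjusted p under 0.05), red for higher and blue for lower. The highest YAP and TEAD target on the left, at 2.39, is Axl, which passed the filter only through the knockout and had to differ. On the right Ptpn14 is the highest, at 1.87. Myh9 on the left and Itga5 on the right are the lowest SRF and MRTF targets, at -1.13 and -1.14.

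Marker genes of some other cell types moved with the Pml comparison too. The skeletal muscle sum did not rise, at 128–137 FPKM in wild type and 120–127 FPKM in the knockout. Most of it was Mylpf, with means of 132 and 121 FPKM. The other skeletal muscle markers had means of at most 1.02 FPKM, so the sum says little about them. The cardiac muscle sum was 10.9–14.1 FPKM in wild type and 11.5–12.1 FPKM in the knockout. The summed level of 12 smooth-muscle markers rose from 23.3–23.9 to 69.2–74.5 FPKM, and most of that was the actin-binding gene Cald1, which went from 6.26 to 52.1 FPKM. Only Smtn, Cald1 and Des of these 12 passed the filter, Des fell by 0.42 ± 0.11, and Pln was at 0 in both knockout libraries. The sum of 12 fibroblast markers went from 11.1–11.2 to 25.7–27.9 FPKM, and 5 of 6 tested markers rose. Of these, 4 had wild-type means under 1 FPKM and had passed the filter only through the knockout, so they had to differ. Col1a1, from a mean of 0.200 to 9.73 FPKM, was among them. Of the other 2, Twist1 rose from a mean of 2.21 to 3.97 FPKM and Thy1 fell from 7.27 to 4.27 FPKM. The sum of 8 trophectoderm markers went from 10.0–10.7 to 48.9–51.2 FPKM, and 4 of 5 tested ones rose. All 4 had wild-type means under 1 FPKM and had passed the filter only through the knockout, so they had to differ. The other 1, Tead4, fell from a mean of 8.08 to 5.78 FPKM. The sum of 9 parietal and primitive endoderm markers went from 120.4–124 to 199.5–206 FPKM, with 4 of 7 tested higher and 3 lower. Sparc, from a mean of 77.7 to 132 FPKM, had the largest part in that rise. The transcription factor genes of the list were lower in the knockout. Gata4 went from a mean of 1.68 to 0.795 FPKM and Sox7 from 1.34 to 0.233 FPKM, and both had passed the filter only through wild type. Gata6 (1.14 to 0.230 FPKM) and Sox17 (0.500 to 0.0785 FPKM) did not pass it. The sum of 8 pluripotency markers was 8074–8101 FPKM in wild type and 7693–7948 FPKM in the knockout, where 3 of 8 fell. In these bulk samples a change in the share of a cell type and a change in RNA per cell cannot be told apart, and the part of these cells in the results was not tested.

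The rule that names the 10 genes speaks of their rise in the Pml knockout and not of arsenite, so they were tested in the arsenite table, although they were chosen with its results already known. Arsenite had 67.7% of 12136 tested genes called, 40.7% higher and 27% lower, so a call alone says little and the sizes matter. Of the 10 genes 9 were called higher. Myl9, one of these, had passed the filter only through the arsenite libraries, which leaves 8 of the 9 others. Without Myl9 the median change was 0.84 over the 9 genes and 0.08 over all genes tested. A rise of at least 1 log2 unit was called for 4 of the 9 and for 5.03% of all genes.

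On the log2(value + 1) scale Tagln and the CCN genes had the largest changes after 2 h of arsenite. By ratio of means Myl9 came first, at 6.21, from an untreated mean of only 0.795 RPKM. Tagln was 8.78 and 8.98 RPKM in the untreated and 48.4 and 44.7 RPKM in the arsenite libraries, a rise of 2.27 ± 0.06 (SE, n = 2 per group, limma, adjusted p = 1.91e-07). Cyr61 went from 10.2 and 9.92 to 46.3 and 44.1 RPKM, a rise of 2.06 ± 0.05 (adjusted p = 1.91e-07). Ctgf went from 15.2 and 14.6 to 60.4 and 59.96 RPKM, a rise of 1.95 ± 0.04 (adjusted p = 1.80e-07). For these 3 genes the gap between groups was many times the difference within a pair, and no ranges overlapped.

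Myl9 and Cnn2 came next. Myl9 was 0.894 and 0.695 RPKM untreated, from about 50 and 39 reads, and 5.17 and 4.70 RPKM with arsenite, a rise of 1.73 ± 0.10. It passed the filter only through the arsenite libraries and had to differ, so its p-value is not given. Cnn2 was 25.4 and 21.3 RPKM untreated and 56.7 and 54.3 RPKM with arsenite, a rise of 1.22 ± 0.08 (adjusted p = 9.18e-06). Tpm1 rose by 0.84 ± 0.04 (adjusted p = 2.00e-06), from 37.8 and 38.4 to 69.3 and 68.7 RPKM. The groups of all 3 genes were apart.

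The alpha-actins, Cnn1 and Tpm2 had the smallest changes on the log2(value + 1) scale. By ratio of means Acta2, at 2.07, lay above Tpm1, at 1.81. Acta2 was 1.61 and 2.33 RPKM untreated and 3.79 and 4.38 RPKM with arsenite, a rise of 0.78 ± 0.13 (adjusted p = 0.00131). Acta1 was 1.40 and 0.892 RPKM untreated and 2.04 and 1.59 RPKM with arsenite, a rise of 0.40 ± 0.14 (adjusted p = 0.0400). The call for Acta1 ended in 5 of the 8 alternatives, among them without untreated library C-2 (adjusted p = 0.185), without arsenite library 1 (0.199) and under quantile normalization (0.490). Cnn1 rose by 0.48 ± 0.10 (adjusted p = 0.00425), from 1.40 and 1.17 to 2.10 and 2.26 RPKM, and lost its call under quantile normalization (adjusted p = 0.0968). Tpm2 was 6.49 and 7.44 RPKM untreated and 7.51 and 7.46 RPKM with arsenite. Its change of 0.09 had a 95% interval from -0.09 to 0.28 and was not called (adjusted p = 0.329).

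Set side by side, the sizes in the 2 tables ranked the genes differently, and as the tables were normalised separately this difference has no test. The alpha-actins Acta1 and Acta2 had ratios of 25.1 and 29.8 in the Pml knockout and 1.58 and 2.07 with arsenite. Ctgf had a ratio of 1.80 in the Pml knockout and 4.04 with arsenite, and Myl9 had ratios of 2.64 and 6.21. Tagln and Cyr61 were high in both, at 28.4 and 10.3 in the knockout and 5.24 and 4.48 with arsenite.

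**Figure D3:**
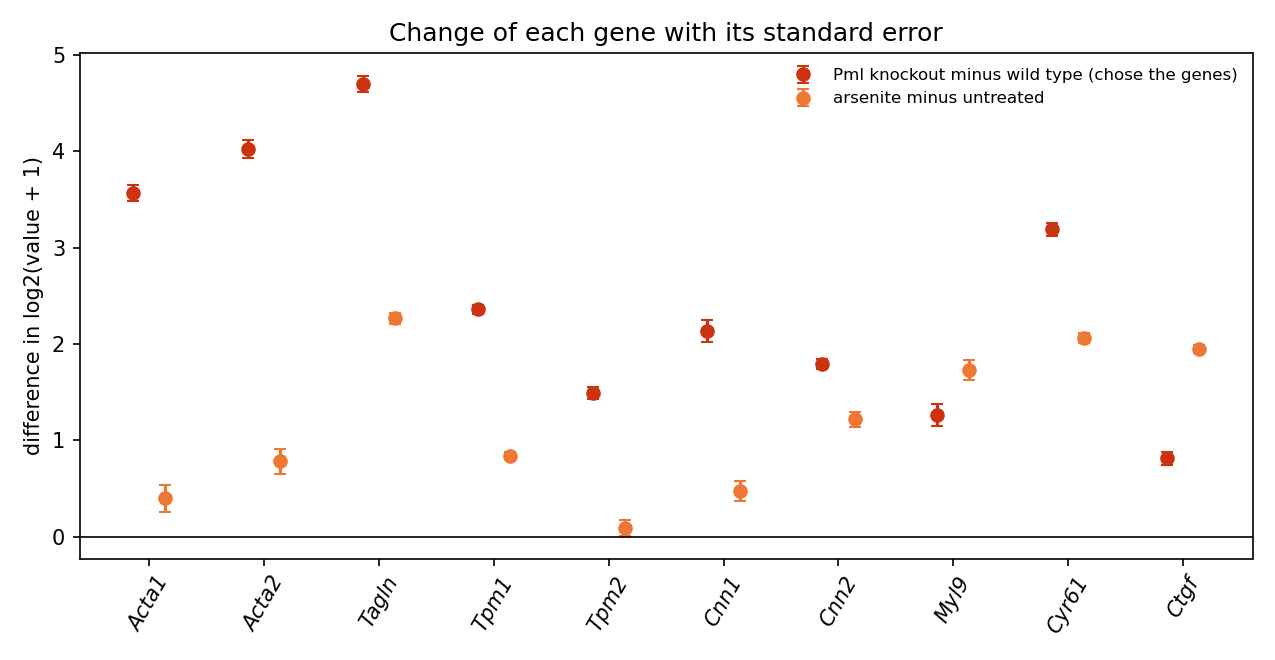
Difference in log2(value + 1) of the 10 genes for Pml knockout minus wild type and arsenite minus untreated, with dots at the fitted value and bars of 1 standard error (n = 2 per group). Ctgf and Myl9 lie higher with arsenite (1.95 and 1.73) than in the knockout (0.81 and 1.26), and the other 8 genes lie higher in the knockout.

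Of 52 other pathway genes tested with arsenite 76.9% were called, against the 67.7% of all genes. Among 16 SRF and MRTF targets 12 rose and 1 fell, and 1 of the 12 (Fhl2) had passed the filter only through the arsenite libraries. Pdlim7 rose by 1.51 ± 0.04, Zyx by 1.26 ± 0.07 and Myh9 by 0.94 ± 0.04, and the fibronectin receptor gene Itga5 fell by 1.14 ± 0.05. Srf itself was not called, at -0.15 ± 0.06 (adjusted p = 0.0594). Of 14 tested YAP and TEAD targets 9 rose and 2 fell. The phosphatase gene Ptpn14 rose by 1.87 ± 0.05, the Hippo kinase gene Lats2 by 1.75 ± 0.10, Amotl2 by 1.52 ± 0.07 and Arhgef17 by 1.28 ± 0.08. Of 15 Hippo and TEAD components 9 rose and 2 fell, a share near the background, and 1 of the 9 (Amot) had passed only through the arsenite libraries. Named among them were Vgll4, a TEAD-binding cofactor, at 1.03 ± 0.07, Yap1 at 0.47 ± 0.04, Wwtr1 at 0.45 ± 0.06 and Nf2, an upstream activator of the Hippo kinases, at -0.70 ± 0.05. Of 7 tested family relatives 4 rose and 1 fell, led by Myl12b at 0.70 ± 0.04. The fibroblast marker sum was 12.7–13.5 RPKM untreated and 12.7–15.0 RPKM with arsenite. For skeletal muscle it was 67.9–86.1 RPKM untreated and 68.0–68.3 RPKM with arsenite, and for cardiac muscle 6.54–8.44 and 7.38–8.07 RPKM. Mylpf again made up most of the skeletal muscle sum, with means of 75.3 RPKM untreated and 65.2 RPKM with arsenite. The smooth-muscle sum went from 33.8–35.0 to 74.3–77.1 RPKM, and that of trophectoderm from 10.1–10.4 to 25.5–27.6 RPKM. That of parietal and primitive endoderm went from 92.5–93.2 to 170.3–170.6 RPKM. In it 6 of 8 tested markers rose, and 1 of the 6 (Gata6) had passed the filter only through the arsenite libraries. The sum of pluripotency markers went from 5178–5248 down to 2723–2837 RPKM. The part of other cell types in the arsenite result was not tested.

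In the Trim33 table the 10 genes did not move as a group. Between the labels under activin A, 9.43% of 11914 genes were called, 6.61% higher and 2.82% lower in the libraries labelled knockout. Of the 10 genes 3 were called: Ctgf higher, Cnn2 and Myl9 lower. Under SB431542, where 9.56% were called, 3.01% higher and 6.55% lower, Ctgf alone was called, and it was lower in the libraries labelled knockout. Trim33 itself changed by -2.63 ± 0.18 under activin A and by 2.59 ± 0.18 under SB431542.

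With activin A, Ctgf was 44.8 and 37.9 in the libraries labelled wild type and 115 and 70.6 in those labelled knockout, a difference of 1.11 ± 0.30 (SE, limma over 8 libraries, adjusted p = 0.0494). With SB431542 it was 87.3 and 53.7 in the libraries labelled wild type and 31.4 and 20.7 in those labelled knockout, a difference of -1.39 ± 0.30 (adjusted p = 0.0229). The label groups did not overlap under either treatment and their order was opposite, as it was for Trim33. The difference between the 2 label effects was 2.50 ± 0.42 (adjusted p = 0.00341), in a test where 26.3% of genes were called, 16.1% higher and 10.1% lower.

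Cnn2 and Myl9 had the reverse order. Under activin A, Cnn2 was 66.0 and 59.5 in libraries labelled wild type and 46.7 and 41.9 in those labelled knockout, a difference of -0.49 ± 0.13 (adjusted p = 0.0482). With SB431542 it was 45.8 and 45.1 against 67.7 and 56.3, at 0.43 ± 0.13 (adjusted p = 0.0717). Myl9 was 11.8 and 11.1 against 6.78 and 8.12 with activin A, at -0.56 ± 0.14 (adjusted p = 0.0410), and 7.69 and 7.94 against 10.4 and 10.7 with SB431542, at 0.39 ± 0.14 (adjusted p = 0.125). The label groups of both genes were apart under both treatments, and the difference between the label effects was called for each, at -0.93 ± 0.18 for Cnn2 (adjusted p = 0.00737) and -0.95 ± 0.20 for Myl9 (adjusted p = 0.00933).

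Acta1 followed Ctgf in direction, with 2.99 and 3.06 in the activin A libraries labelled wild type and 8.33 and 4.91 in those labelled knockout. In the SB431542 libraries it was 8.22 and 4.69 against 3.37 and 3.87. Neither label effect was called (adjusted p = 0.0758 and 0.173). The groups did not overlap, which only describes this gene, because the share of all genes without overlap was not counted. A fit of only the 4 activin A libraries did call the activin A effect (adjusted p = 0.0342). The difference between the label effects was 1.53 ± 0.39 (adjusted p = 0.0194). The calls under activin A were not stable: leaving out any 1 of the 4 ended those of Cnn2 and Myl9, and that of Ctgf was kept only without the second library labelled knockout (1 call). Without the filter on low values 0 of the 3 remained. The call of Ctgf under SB431542 ended without the second library labelled knockout (adjusted p = 0.102) or the first labelled wild type (adjusted p = 0.120). Both the activin A and the SB431542 calls ended when the first library labelled knockout with activin A and the first labelled wild type with SB431542 were left out together. The differences between label effects held without them for Ctgf at 1.81 and Cnn2 at -1.02 (adjusted p = 0.0299 and 0.0485) and not for Acta1 at 0.86 and Myl9 at -0.82 (adjusted p = 0.151 and 0.116).

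In the groups of those 2 libraries the pair lay far apart for Tagln and Acta2, the first above and the second below the other 4 libraries. Tagln was 118 and 64.8 in the knockout-labelled activin A group and 111 and 57.9 in the SB431542 group labelled wild type, against 78.6 to 95.1 in the other 4. Acta2 was 23.2 and 6.55 in the first of these groups and 18.7 and 5.77 in the second, against 9.94 to 11.4 in the other 4. In both groups the first library was the higher one for 9 of the 10 genes, and their median difference on the log2 scale between the paired libraries was 0.53 and 0.39, against 0.16 and 0.19 for all genes. The fibroblast marker sum moved with them, at 46.6 and 18.3 in the first group and 40.9 and 14.7 in the second, against 8.84 to 10.6 in the other 4 libraries. The trophectoderm sum was 34.6 and 19.6 in the first group and 33.0 and 15.98 in the second, against 7.37 to 11.3 elsewhere, and that of parietal and primitive endoderm 309 and 215, and 305 and 207, against 146 to 183. The cardiac muscle sum was 12.97 to 15.1 in these 4 libraries and 4.45 to 5.71 in the other 4, and the skeletal muscle sum 279 to 367 and 156 to 247. Mylpf made up most of the skeletal muscle sum, with group means of 299 and 331 against 186 and 198. The part of such cells in these values was not tested.

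Tagln, Acta2, Tpm1, Tpm2, Cnn1 and Cyr61 were called in none of the comparisons of this table with all 8 libraries. Without the first libraries of the knockout-labelled activin A group and the SB431542 group labelled wild type, the difference of label effects for Acta2 was -1.43. That fit leaves 1 library in each of these 2 groups, the lower one for Acta2. For Tagln the label effect under activin A was 0.01, with a 95% interval from -0.72 to 0.75, and for Acta2 it was 0.21, from -1.06 to 1.48. These intervals are wide, so a change of the size seen for Cnn2 would not have been detectable in either gene. Tpm1 and Tpm2 were tighter, at -0.10 (from -0.41 to 0.22) and 0.02 (from -0.27 to 0.31). Cyr61 was 51.4 and 37.5 against 64.7 and 44.2 under activin A, with overlapping groups and a label effect of 0.28 ± 0.28 (adjusted p = 0.583).

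Activin A against SB431542 over both labels called none of the 10 genes by limma, and 1 at an unadjusted p under 0.05, in a comparison that called 0.109% of all genes. That gene was Ctgf, at 0.53 ± 0.21 (adjusted p = 0.9996). Cyr61 differed by 0.23 ± 0.20. Tpm2 had no overlap, with 9.66 to 10.1 under activin A and 10.3 to 10.6 under SB431542, and a difference of -0.07 ± 0.09 that was not called.

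**Figure D4:**
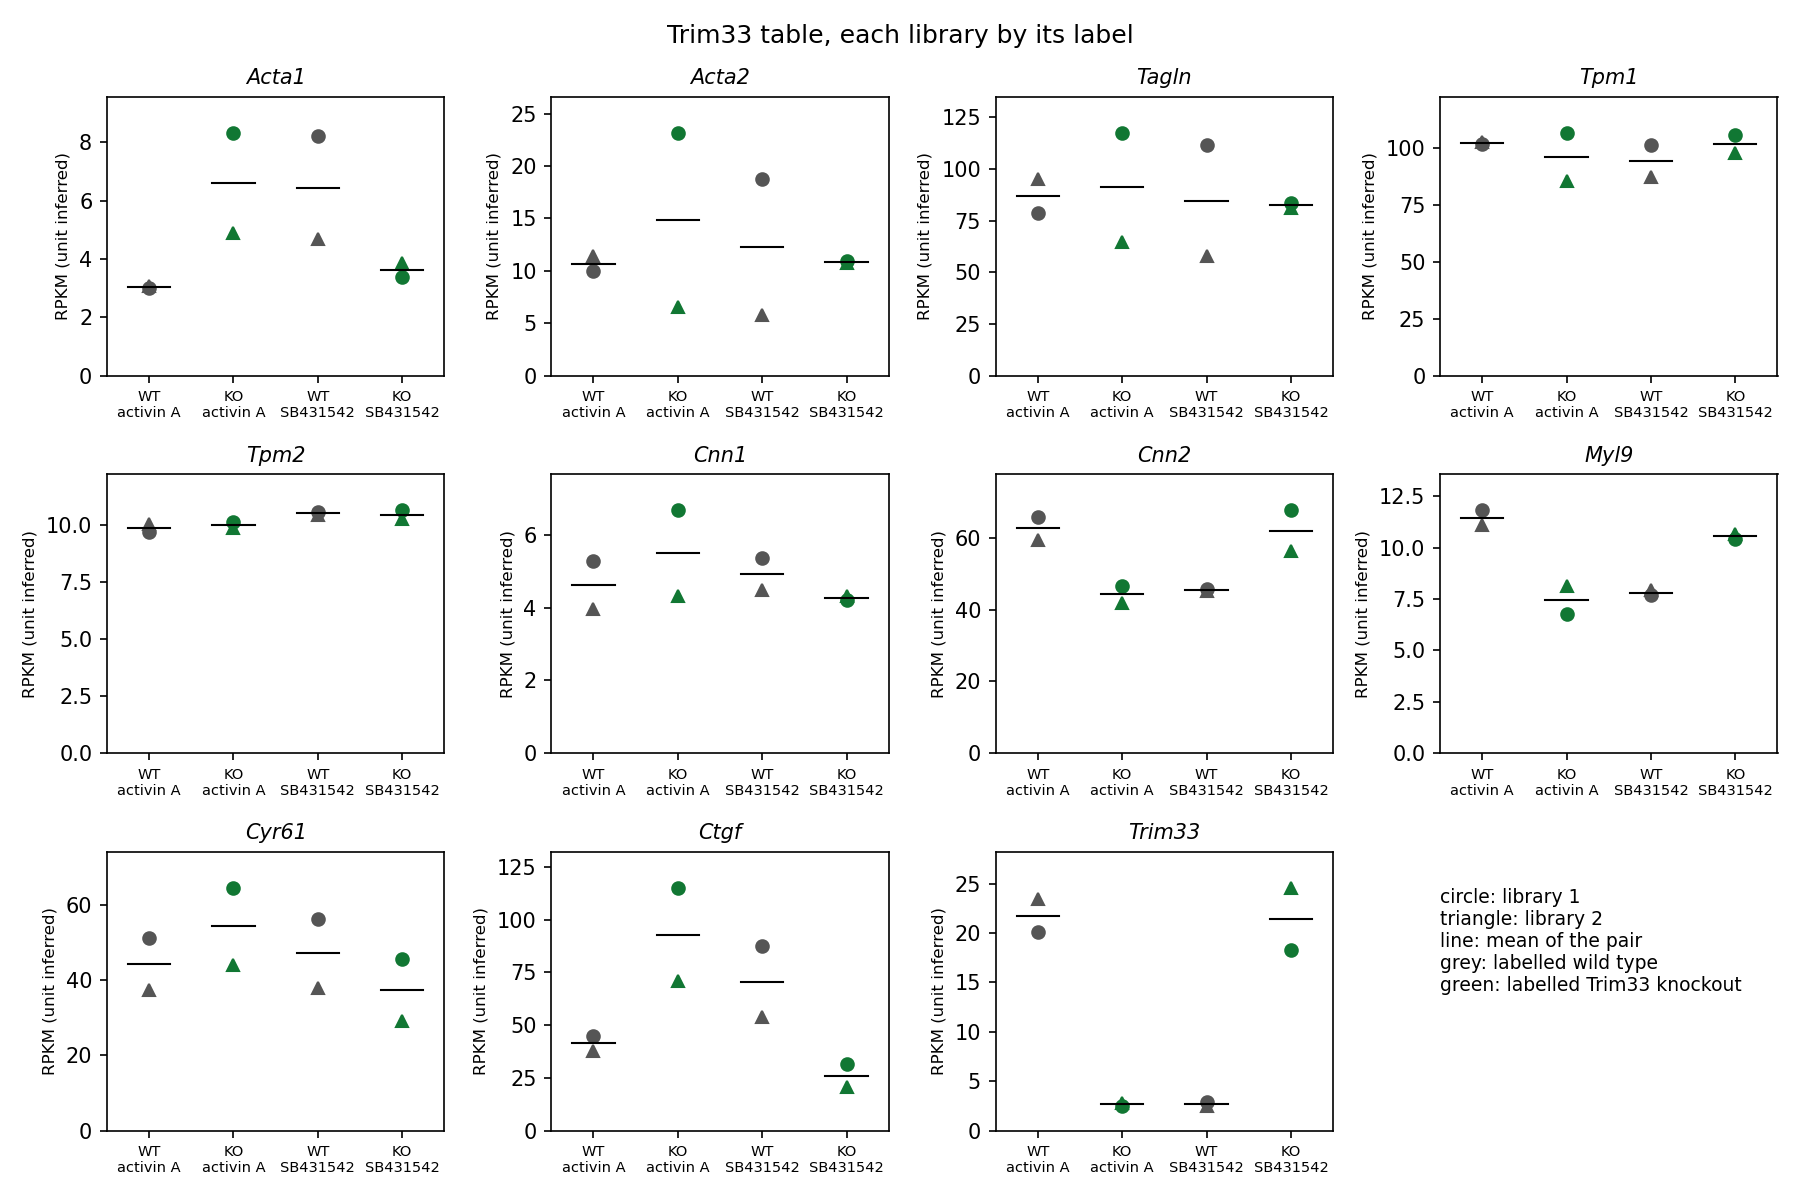
Value of the 10 genes and of Trim33 in each of the 8 libraries of the Trim33 table (RPKM, a unit inferred from the values), with circles for library 1, triangles for library 2, lines for the mean of each pair and green for libraries labelled knockout. Ctgf is higher, and Cnn2 and Myl9 lower, in the knockout-labelled activin A group and the SB431542 group labelled wild type, where Trim33 lies between 2.44 and 2.94.

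Of 58 other pathway genes tested, 5 (8.62%) were called between the Trim33 labels under activin A and 7 (12.1%) under SB431542, near the shares of all genes. Under activin A they were Zyx at -0.60 ± 0.15 and Pdlim7 at -0.70 ± 0.14 among 16 SRF and MRTF targets, Gadd45a at -1.17 ± 0.23 among 17 YAP and TEAD targets, Vgll4 at 0.79 ± 0.19 and Actc1, which passed the filter through the libraries labelled wild type only, at -1.43 ± 0.24. Under SB431542 the same 5 were called in the opposite direction, Zyx at 0.79 ± 0.15, Pdlim7 at 0.73 ± 0.14, Gadd45a at 1.28 ± 0.23, Vgll4 at -0.77 ± 0.19 and Actc1 at 1.06 ± 0.24. Tead4 at -0.63 ± 0.17 and the CCN gene Nov at -0.68 ± 0.17 were called there as well. With SB431542, Nov was 0.317 to 0.328 in the libraries labelled knockout, and Actc1 was 0.165 to 0.546 in those labelled wild type. Both were thus under 1 throughout 1 label group and had passed the filter through other libraries. Without such genes, 0 of 7 family relatives were called under either treatment.

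Over all 16 libraries, with log2 values centred within each table, the genes most like Tagln were Anxa5 (r = 0.994), Parva (0.992), Slc25a24 (0.989), Tpm1 (0.988) and Aebp1 (0.988), out of 10868 genes. Those most like Cyr61 were Vgf (0.988), Krt19 (0.986), Bmp1 (0.984), Itga3 (0.975) and Phlda1 (0.974). Within the 8 libraries of the Trim33 table the same values were 0.814 to 0.898 for the 5 Tagln neighbours and 0.643 to 0.880 for the 5 Cyr61 neighbours. Anxa5, for example, was 3.16 to 3.28 FPKM in Pml wild type and 43.4 to 50.5 FPKM in the knockout. These correlations describe a ranking and share the groups, libraries and scaling of each table, so no test was attached.

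Some of the reads behind these values may be shared with neighbours. Tagln (chromosome 9, 45929619 to 45936058, minus strand, GRCm38) lies opposite the antisense transcript Gm48529 and Pcsk7, and 58.3% of the 50-base words of its exons also occur in those genes. Ctgf (chromosome 10, 24595442 to 24598683, plus strand) shares 17.2% with the antisense transcript Gm15270. The sources used here do not say whether counting used strand, so reads of these pairs cannot be told apart. Pcsk7 lay between 4.86 and 5.75 FPKM in the 4 Pml libraries, and with arsenite it rose by 0.28 ± 0.08 (adjusted p = 0.0195), from a mean of 4.35 to 5.50 RPKM. Acta1 shared 2.02% and Acta2 0.326% of such words with other actin genes or pseudogenes, and the other 6 genes shared none.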

How the data were processed

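RNA-seq of 16 libraries in 8 groups of 2 was analysed from 3 deposited tables. The Pml table holds FPKM values and the arsenite table RPKM values, as the authors named them. The Trim33 table names no unit, and its deposited values fall on whole-read steps like the RPKM table. The submitters' processing notes name featureCounts 2.0.1, Bowtie2 2.3.3, DESeq2, SAMtools 1.9 and FastQC 0.11.5, with build mm10. Steps between low values gave approximate depths of 46700000 to 48600000 reads (arsenite table) and 31300000 to 39400000 reads (Trim33 table), with 44.1% to 62.3% of low values whole within 0.05 reads. The depth of the Pml table is unknown.

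Values were tested as log2(value + 1) with limma 3.58.1 (R 4.3.3; lmFit, and eBayes with a trend) over genes that reached 1 in 2 or more libraries of the table. Tests were two-sided and Benjamini-Hochberg adjusted over all genes of the table, and calls were made at an adjusted p under 0.05. The 4 Trim33 groups shared 1 fit. The share of all genes whose groups did not overlap was not counted, so a lack of overlap only describes the gene named. Fold changes on this scale understate those of low genes. The script was tested on simulated data. Untreated columns are headed C while the samples are titled N, so they were matched to their group only.

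Named genes were the 10 genes in every library, up to 4 called genes of each of 4 pathway lists with the largest change and no overlap between groups, Pml and Trim33, and the 5 genes most correlated with Tagln and with Cyr61. Other names (Srf, Yap1, Wwtr1, Tead1, Tead4, Actb, Myh9, Gadd45a, Nf2 and those with marker sums or shared reads) were chosen after their values were seen. The 10 genes and the lists were chosen with earlier results of these data known. Gene positions are from GENCODE vM21 and promoters from RefSeq (both GRCm38). One further pathway list is not reported here. Alternatives were another pseudocount, no filter, quantile and median-ratio scaling, each library left out, a replicate block and, for the Trim33 labels, a fit of only the 4 libraries compared.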

Additional observations from a re-analysis of the deposited data

Results flagged for a closer look

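For 4 of the 10 genes the difference between Trim33 knockout and wild-type labels was not the same under activin A and SB431542, by a test of that difference (limma, interaction of label and treatment, 2 libraries per group). It was 2.50 for Ctgf, 1.53 for Acta1, -0.93 for Cnn2 and -0.95 for Myl9, on the log2 scale. For each of the 4 genes the label groups did not overlap under either treatment and were in opposite order. As the 4 were picked by that test, this order describes them and adds no support. The share of all genes with such an order was not counted. In the same test 26.3% of all genes were called, and Trim33 itself had a value of -5.23 ± 0.25 (adjusted p = 1.35e-05). Trim33 was 2.44 to 2.94 in the libraries labelled knockout with activin A or wild type with SB431542. It was 18.3 to 24.6 in the other 4. The test therefore compares libraries low in Trim33 with libraries high in Trim33. Eif2s3y, a Y-linked gene, followed the same libraries, at 0 to 0.143 in those labelled knockout with activin A or wild type with SB431542 and 38.3 to 41.0 in the other 4. Genotype, line and label cannot be told apart here.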

How the results depend on the processing

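Under the alternatives, the counts of called genes kept within 1.5 times for the Pml pathway lists (47 of 57; 38 to 42 with 1 library left out), for arsenite (9 of 10; 7 to 9), for the label by treatment difference (4; 3 to 5) and for activin A against SB431542 (0 throughout). The 47 include the genes that passed the filter only through the knockout and had to differ, and the 9 include Myl9. In the main fits the shares of all genes called were 35.5%, 67.7%, 26.3% and 0.109%, in that order. The 3 members called between Trim33 labels under activin A became 1 with a pseudocount of 0.1, 0 without the filter, 1 with median-ratio scaling and 0 to 1 with 1 library left out. The 1 called under SB431542 became 0 without the filter, 2 with the replicate block (Cnn2 added) and 0 to 1 with 1 library left out. Fits of only the 4 libraries compared called 4 under activin A (Acta1 added) and 1 under SB431542. Left-out libraries lower the number of residual degrees of freedom. In an alternative chosen after seeing the data, both first libraries of the groups labelled knockout with activin A and wild type with SB431542 were left out. This leaves 1 library in each of these groups, the lower one for Acta2. The difference of label effects for Acta2 then reversed to -1.43 from 0.18. Median-ratio scaling moved the median of all genes with arsenite from 0.08 to -0.05, and 8 of the 10 genes were called there. With the replicate block the Pml lists gave 48 calls, where 37.1% of all genes were called. Same-numbered libraries correlated at 0.02 in the Pml table and at -0.14 to 0.60 in the Trim33 table, with 4 of 6 pairs of groups above 0.1. As not every pair was, and no label ties the numbers to a culture or day, the block stands here only as an alternative. No block could be fitted for arsenite, because the untreated columns carry no number tied to a label. Pml fold changes with a pseudocount of 0.1 were larger for low genes, 4.49 for Acta1 and 4.82 for Tagln. Allowing 1 departing letter, also chosen after seeing the data, 5 of 8 promoters held a CArG box, against 18.9% of all. With 2 libraries per group, intervals cover only the spread between them.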
